A study of Mus musculus with 15 samples.

Results

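The WNT pathway genes described here are 46 genes for secreted ligands, receptors, antagonists and effectors, taken by symbol from a table of 29072 named mouse genes in brown preadipocytes. Where a gene has several transcripts, the one with the highest mean across the 15 libraries stands for it, and all 46 genes were found. A level of at least 0.5 RPKM (reads per kilobase of transcript, scaled to the depth of the library) in at least 3 libraries was needed for testing, which 34 of the 46 met, as did 13869 of all named genes. The other 12 are described by their reads. The 46 comprise 11 ligands, 10 Frizzled receptors, 9 secreted antagonists, 2 coreceptors, 3 R-spondins, the destruction complex scaffolds Axin1 and Axin2, beta-catenin, 4 TCF/LEF factors, 2 intracellular inhibitors, the ubiquitin ligase Znrf3 and the DKK receptor Kremen1.

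The cells were preadipocytes, precursors of fat cells, from the stromal-vascular fraction of interscapular brown adipose tissue of 129SvEv mice, immortalised with the SV40 large T antigen. Libraries for sequencing were made from total RNA, in 5 groups of 3 libraries. The control group had no agent according to its labels. The other groups received 5.56 nM of a fibroblast growth factor for 48 h: Fgf1, Fgf8b, FGF9, or both Fgf8b and Bay-876, the latter at 2 µM. Bay-876 blocks GLUT1, a glucose transporter. FGF1, FGF8b and BAY-876 are the spellings used from here on. The series text gives 1 µg/ml heparin for the growth factor treatments, whereas heparin appears in the sample labels of the FGF9 group alone. Whether control cells received heparin or were kept for 48 h is not stated, and no group with BAY-876 alone or heparin alone was analysed here. All groups carry the large T antigen, so every comparison is between immortalised cells, and they were cultured preadipocytes rather than tissue. Nothing states that the libraries within a group came from separate cultures, so p-values measure the spread between these libraries, which may be technical.

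WNT ligands are secreted proteins that bind a Frizzled receptor together with the coreceptors LRP5 or LRP6. In the canonical branch this keeps beta-catenin from being degraded by a complex built on AXIN, and beta-catenin then acts with TCF/LEF factors on target genes. Secreted frizzled-related proteins (SFRP) bind the ligands, DKK proteins act on the coreceptors, and R-spondins raise receptor levels by binding LGR receptors and the ubiquitin ligases ZNRF3 and RNF43. Canonical WNT signalling is known to hold preadipocytes back from becoming adipocytes.

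Libraries held 27 to 42.6 M reads as worked out from the steps of the RPKM values. All 10 preadipocyte and stromal markers reached 1 RPKM in at least 1 group. Their summed RPKM was 3094 to 3550.3 in control, 3086 to 3194 with FGF1, 1001 to 1187 with FGF8b, 1015 to 1032 with FGF9 and 198 to 204 with FGF8b plus BAY-876. The members of this list did not move together. Ly6a averaged 1015 RPKM in control, 245 RPKM with FGF1 and 52.7 RPKM with FGF8b, Col1a1 433, 456 and 85.2 RPKM, Thy1 37.8, 48.0 and 62.8 RPKM, and Ebf2 11.1, 12.0 and 12.7 RPKM in the same order. Markers of skeletal muscle summed to at most 0.276 RPKM in any library, with Myod1, Myf5 and Myog at 0 throughout. The endothelial list summed to 7.63 to 8.98 RPKM in control and to at most 1.74 RPKM in the other groups. Of that list Kdr (6.18 RPKM) and Tek (1.94 RPKM) made up most of the control sum, and the markers Pecam1 and Cdh5 averaged at most 0.0813 RPKM in any group. Macrophage markers summed to 2.89 to 4.13 RPKM in control, 3.46 to 4.10 RPKM with FGF1, 4.15 to 4.46 RPKM with FGF8b, 3.83 to 5.45 RPKM with FGF9 and 4.93 to 6.09 RPKM with FGF8b plus BAY-876. C1qa was at 0 throughout and Ptprc at most 0.00427 RPKM as a group mean. Group means were 1.74 to 3.33 RPKM for Itgam, 0.888 to 1.29 RPKM for Csf1r and 0.625 to 0.888 RPKM for Cd68. Mural markers summed to 3.39 to 4.83 RPKM in control, 4.10 to 5.41 RPKM with FGF1 and 5.75 to 7.41 RPKM in the other groups. Schwann and neural markers summed to 9.05 to 10.1 RPKM in control, 6.16 to 6.73 RPKM with FGF1 and 3.36 to 5.20 RPKM in the other groups. In bulk RNA, fewer cells of a type and less RNA per cell cannot be told apart, which holds for every level below. The part of these marker shifts in the falls of the WNT genes was not tested.

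With FGF8b and with FGF9, most tested WNT genes had lower levels than in control. After FGF8b, 7 of 34 rose and 23 fell, beside 37.8% of all tested genes called higher and 26.6% called lower. After FGF9, 8 rose and 21 fell, with backgrounds of 38.7% higher and 27% lower. FGF1 moved fewer: 5 rose and 6 fell, beside backgrounds of 19.3% and 15.1%. The 5 include Wnt4, which met the filter through 3 FGF1 libraries and 1 control library. A call is a limma p below 0.05 after Benjamini-Hochberg adjustment over all 13869 genes, and each log2 difference is on the scale log2(RPKM + 0.5), which understates changes of low genes. The median log2 difference of the 34 was 0.11 with FGF1, -0.63 with FGF8b and -0.59 with FGF9, against 0.02, 0.08 and 0.09 over all tested genes. The 3 comparisons share the control libraries. With trimmed-mean scaling, 51% of all FGF8b calls were higher instead of 58.6%, and 51.1% of all FGF9 calls instead of 58.9%. The WNT counts were then 6 higher and 24 lower with FGF8b, and 7 higher and 22 lower with FGF9.

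The falls with FGF8b also reached larger sizes. A fall of at least 1 on the log2 scale was found for 13 of 34 with FGF8b, 13 with FGF9 and 1 with FGF1, and a rise of that size for 1 gene in each. Over all tested genes, such falls were called for 8.04% with FGF8b, 8.39% with FGF9 and 2.6% with FGF1, and such rises for 4.87%, 5.61% and 1.24%. Of the 34, 8 had no FGF8b library at 0.5 RPKM (Wnt4, Wnt9a, Wnt10a, Wnt10b, Wnt16, Sfrp4, Rspo1 and Rspo3) and were tested through their level in other groups, so the counts of lower calls partly reflect the filter. Set directly against FGF1, FGF8b gave 5 higher and 23 lower WNT genes, beside backgrounds of 33.3% and 26.6%. FGF9 set against FGF8b gave 0 calls in either direction, with backgrounds of 0.202% higher and 0.0937% lower. For that pair, limma gave 4 WNT genes with an unadjusted p below 0.05 (Fzd5, Rspo3, Wnt10a and Wnt5a), and a voom fit on recovered reads gave 0 adjusted calls and 4 unadjusted. The log2 differences between FGF9 and FGF8b lay between -0.25 for Rspo3 and 0.31 for Tcf7l1, and no 95% interval reached below -0.50 or above 0.73. This bounds the difference on that scale alone, which understates changes of low genes, and does not show that the factors act alike. In reads, the ratio of FGF9 to FGF8b was 1.93 for Rspo1 (95% interval 1.07 to 3.63, counting error only). The Rspo1 libraries of these groups overlapped, with 9, 23 and 9 reads for FGF9 and 10, 5 and 2 for FGF8b (limma adjusted p 0.809). For Rspo3 the ratio was 0.673 (0.502 to 0.900).

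BAY-876 added to FGF8b gave 6 higher and 19 lower WNT genes than FGF8b alone, beside backgrounds of 22.5% and 34.8%. The 6 include Rspo1, which was tested through the BAY-876 libraries alone. The median log2 difference was -0.40 for the 34 and -0.08 for all tested genes. Under trimmed-mean scaling, the share of all calls that were higher moved from 39.3% to 50.6% in this comparison, and the WNT counts were 7 higher and 18 lower. This comparison and that of FGF8b with control share the FGF8b libraries.

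**Figure D1:**
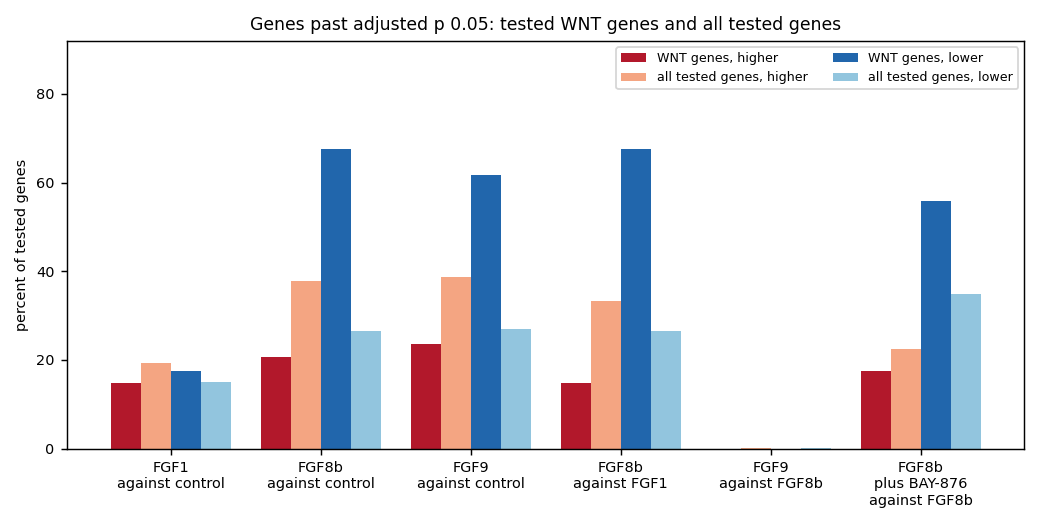
Percent of tested genes past the adjusted p threshold in each of 6 comparisons (bars from 0), for the 34 tested WNT genes (dark) and all 13869 tested genes (light), higher in red and lower in blue. With FGF8b against control 67.6% of the WNT genes were lower against 26.6% of all tested genes, while with FGF1 the WNT share was 17.6% against 15.1%.

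**Figure D2:**
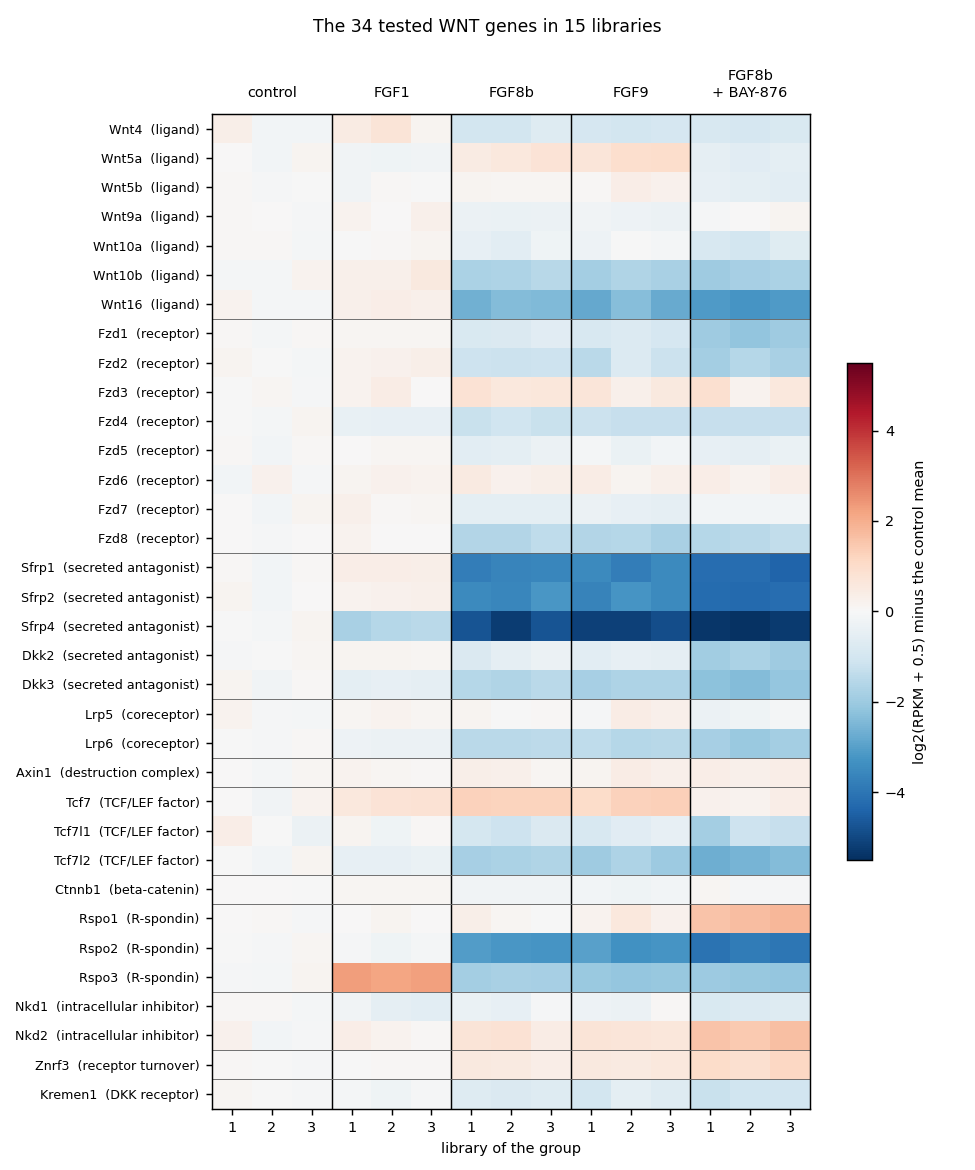
Level of each of the 34 tested WNT genes (rows, with role) in each of 15 libraries (columns, by group), as log2(RPKM + 0.5) minus the control mean. The 3 libraries of a group look alike in most rows, Rspo3 is red with FGF1 alone, and Sfrp1, Sfrp2, Sfrp4, Wnt16 and Rspo2 are the darkest blue rows with FGF8b, FGF9 and FGF8b plus BAY-876.

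Promoter sequence is shown for the genes with a single promoter entry that had the largest changes with FGF8b, the 3 lowest and the 1 highest, so that ligands, an antagonist and an intracellular inhibitor stand side by side. Entries existed for 30 of the 46 genes, in 39 windows, from RefSeq on GRCm38.p6. Each sequence is the 250 bases before the annotated start, on the gene's strand, and capitals mark a CCAAT box (letters CCAAT or its reverse complement). Sfrp2 lies at chr3:83766071-83766320 on the plus strand, Wnt16 at chr6:22287977-22288226 on the plus strand, Wnt10b at chr15:98778151-98778400 on the minus strand and Nkd2 at chr13:73847632-73847881 on the minus strand.
Sfrp2: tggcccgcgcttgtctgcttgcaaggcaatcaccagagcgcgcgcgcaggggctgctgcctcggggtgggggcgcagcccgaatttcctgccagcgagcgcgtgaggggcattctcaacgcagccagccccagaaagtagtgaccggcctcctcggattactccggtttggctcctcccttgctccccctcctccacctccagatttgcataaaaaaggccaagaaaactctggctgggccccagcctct
Wnt16: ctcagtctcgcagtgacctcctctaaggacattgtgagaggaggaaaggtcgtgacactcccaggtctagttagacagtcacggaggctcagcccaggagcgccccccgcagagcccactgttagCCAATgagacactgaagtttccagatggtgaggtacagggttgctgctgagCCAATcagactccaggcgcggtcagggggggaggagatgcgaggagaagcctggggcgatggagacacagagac
Wnt10b: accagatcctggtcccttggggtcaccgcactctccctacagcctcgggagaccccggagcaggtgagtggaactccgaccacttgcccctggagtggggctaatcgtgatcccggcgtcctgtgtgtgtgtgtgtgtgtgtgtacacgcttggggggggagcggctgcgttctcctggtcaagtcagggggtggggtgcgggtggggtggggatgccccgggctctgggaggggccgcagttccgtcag
Nkd2: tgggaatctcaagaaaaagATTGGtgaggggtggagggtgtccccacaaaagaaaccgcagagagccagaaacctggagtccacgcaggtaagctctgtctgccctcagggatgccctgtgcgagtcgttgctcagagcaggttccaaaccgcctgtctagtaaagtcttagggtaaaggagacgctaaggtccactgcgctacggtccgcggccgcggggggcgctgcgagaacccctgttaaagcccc
The search covered both strands for CTTTGAT (the TCF/LEF core), CCGGAAG (an ETS site), TGANTCA (AP-1) and CCAAT, the last added after the windows had been read. The first 3 sets of letters do not occur in these 4 windows. Over all 32851 windows of this length, 3.21% hold the TCF/LEF letters, 6.91% the ETS letters, 6.75% the AP-1 letters and 33.8% a CCAAT box. Among the 39 windows of WNT genes, 2 hold the TCF/LEF letters, 2 the ETS letters, 1 the AP-1 letters and 9 a CCAAT box. The Wnt16 window holds 2 CCAAT boxes and the Nkd2 window 1, and the letters do not occur in the other pair. Base composition was rich in G and C, at 63.6% for Sfrp2, 59.2% for Wnt16, 66.8% for Wnt10b and 58.4% for Nkd2. A match here is a run of letters and not a shown binding site.

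Among the ligands, Wnt16 and Wnt10b fell with FGF8b and FGF9 while Wnt5a rose. Of 7 tested ligands, FGF8b raised 1 and lowered 5, FGF9 raised 1 and lowered 4, and FGF1 raised 2 and lowered 0. The shares of all tested genes were 37.8% higher and 26.6% lower with FGF8b, 38.7% and 27% with FGF9, and 19.3% and 15.1% with FGF1. The 5 ligands that fell with FGF8b (Wnt4, Wnt9a, Wnt10a, Wnt10b and Wnt16) had no FGF8b library at 0.5 RPKM. They were tested through other groups, so this count partly reflects the filter. The 2 that rose with FGF1 include Wnt4, which was tested through 3 FGF1 libraries and 1 control library. Wnt16 had 5.37, 4.30 and 4.24 RPKM in the control libraries and 5.70, 5.99 and 5.77 RPKM with FGF1. It had 0.309, 0.471 and 0.447 RPKM with FGF8b, 0.226, 0.506 and 0.242 RPKM with FGF9, and 0.0813, 0.0406 and 0.0987 RPKM with FGF8b plus BAY-876. All 9 libraries with FGF8b or FGF9 lay below every control and FGF1 library, and those with BAY-876 below all others. The log2 difference was -2.50 ± 0.13 (SE, n = 3 per group) with FGF8b (limma adjusted p 9.91e-11), and the reads gave an 11.3-fold lower level (95% interval 8.77 to 14.8, counting error only). With FGF9 it was -2.65 (limma adjusted p 4.38e-11). BAY-876 lowered it further by a log2 difference of -0.66 ± 0.13 (limma adjusted p 3.66e-04), on 14 reads against 65.

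Wnt10b, a ligand known to block adipocyte formation through beta-catenin, stood at 1.59, 1.54 and 2.07 RPKM in control and at 2.18, 2.18 and 2.68 RPKM with FGF1. Levels were 0.166, 0.186 and 0.261 RPKM with FGF8b, 0.111, 0.205 and 0.139 RPKM with FGF9, and 0.0800, 0.125 and 0.156 RPKM with FGF8b plus BAY-876. FGF1 lay above control in every library and the other groups below it. Only control and FGF1 libraries took Wnt10b past the level filter, so its falls were tested through the groups where it was high. The log2 difference was 0.35 ± 0.11 with FGF1 (limma adjusted p 0.0228), -1.66 ± 0.11 with FGF8b (limma adjusted p 2.96e-09) and -1.77 ± 0.11 with FGF9 (limma adjusted p 1.19e-09). The FGF1 call was lost without control library 1 (adjusted p 0.0813 in limma), control library 2 (0.094) or FGF1 library 3 (0.111), with a pseudocount of 0.1 (0.119), and in a fit on those 2 groups alone (0.0518). The difference with BAY-876, -0.18, did not pass the test (95% interval -0.42 to 0.05), though it did for the RefSeq transcript (limma adjusted p 0.0426).

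Wnt5a, usually assigned to the branch that works without beta-catenin, went the other way. It measured 4.59, 3.99 and 5.09 RPKM in control, 3.94, 3.82 and 3.92 RPKM with FGF1, 6.36, 6.93 and 8.06 RPKM with FGF8b, 7.60, 8.93 and 9.26 RPKM with FGF9, and 3.06, 2.76 and 2.92 RPKM with FGF8b plus BAY-876. FGF8b and FGF9 libraries were all above control, and those with BAY-876 all below it. Log2 differences were 0.59 ± 0.10 with FGF8b (limma adjusted p 9.66e-05), 0.85 ± 0.10 with FGF9 (limma adjusted p 2.10e-06) and -1.15 ± 0.10 for BAY-876 on top of FGF8b (limma adjusted p 1.33e-07). The FGF1 difference, -0.20, did not pass (limma adjusted p 0.154). Wnt5a has 11 transcripts averaging at least 0.5 RPKM, and their sizes of change varied. Over these, differences between group means on the log2 scale ran from 0.34 to 0.89 with FGF8b and 0.72 to 1.02 with FGF9. They ran from -1.19 to -0.11 for BAY-876 and from -0.28 to 0.48 with FGF1.

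Wnt4 was low, with 72 reads in control, 104 with FGF1, 4 with FGF8b, 2 with FGF9 and 6 with FGF8b plus BAY-876. It met the level filter through 3 FGF1 libraries and 1 control library, the groups where it was high. Its adjusted p values are therefore given as descriptions and not as support for a change. The reads put it 16.5-fold below control with FGF8b (95% interval 6.16 to 62.0), and the log2 difference was -0.90 ± 0.15 (limma adjusted p 6.16e-05). Its rise with FGF1, 0.44 ± 0.15 with a limma adjusted p of 0.0294, was lost without control library 2 (adjusted p 0.114 in limma), control library 3 (0.108), FGF1 library 1 (0.0727) or FGF1 library 2 (0.152). It was also lost with a pseudocount of 0.1 (adjusted p 0.102 in limma), in a fit on those 2 groups alone (0.0849) and in the voom fit on reads (0.0882). Wnt9a fell with FGF8b by 0.33 on the log2 scale and with FGF9 by 0.27, and it was higher by 0.37 with BAY-876 than with FGF8b alone. The fall of Wnt9a with FGF9 was lost without control library 1 (adjusted p 0.0564 in limma) or FGF9 library 3 (0.0659). Wnt10a fell by 0.42 with FGF8b and by a further 0.42 with BAY-876, and Wnt5b was called in 1 comparison only, FGF8b plus BAY-876 against FGF8b, at -0.64. The 4 ligands under the level filter were Wnt2, Wnt2b, Wnt6 and Wnt11. Of these, Wnt2b had 177 reads in control, 91 with FGF1, 46 with FGF8b, 50 with FGF9 and 29 with FGF8b plus BAY-876, and its FGF8b libraries (0.119 to 0.162 RPKM) all lay below control (0.465 to 0.487 RPKM).

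**Figure D3:**
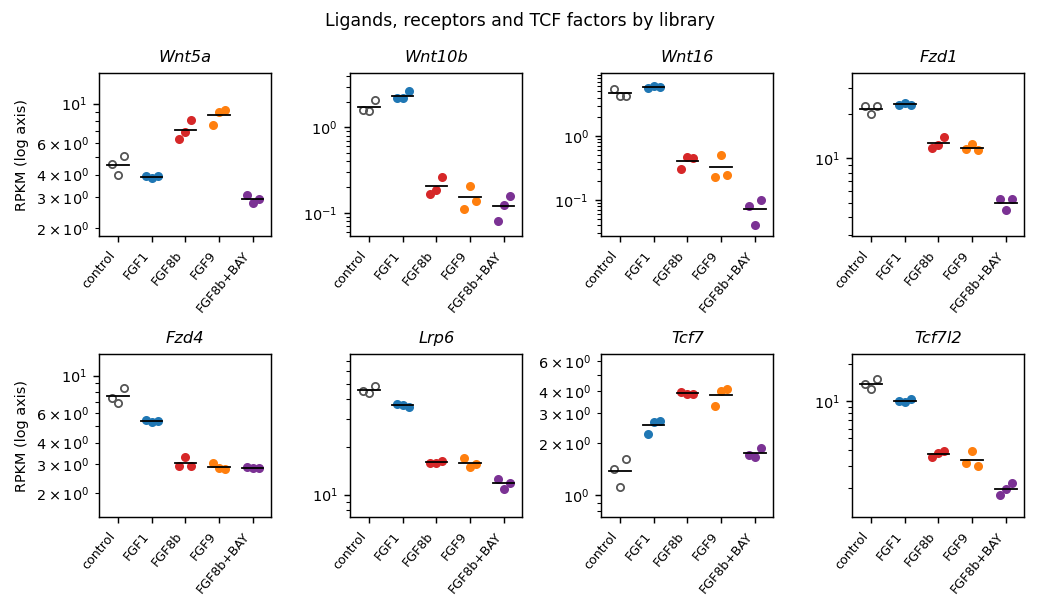
RPKM (log axis) in each library of 8 WNT ligands, receptors and TCF factors, 3 points per group with a line at the mean. Wnt5a and Tcf7 are highest with FGF8b and FGF9 and lower with BAY-876, whereas Wnt10b, Wnt16, Fzd1, Fzd4, Lrp6 and Tcf7l2 are lower with FGF8b and FGF9 than in control.

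The Frizzled receptors, which bind the ligands at the cell surface, split with FGF8b into 6 that fell and 2 that rose among 8 tested. With FGF9 5 fell and 2 rose, with FGF1 1 fell and 0 rose, and with BAY-876 2 fell and 1 rose against FGF8b. Beside the 26.6% of all tested genes that were lower with FGF8b, 6 of 8 is a larger share, while the BAY-876 counts are no more than the backgrounds of 34.8% lower and 22.5% higher. The backgrounds were 27% lower and 38.7% higher with FGF9, 15.1% and 19.3% with FGF1, and 37.8% higher with FGF8b. The FGF1 counts, and the rises with FGF8b and FGF9, are no more than these. Fzd1, the most abundant receptor in control, had 22.9, 20.0 and 22.6 RPKM in control, 23.3, 23.8 and 23.2 RPKM with FGF1, 11.8, 12.4 and 14.0 RPKM with FGF8b, 11.6, 12.6 and 11.4 RPKM with FGF9, and 5.28, 4.42 and 5.28 RPKM with FGF8b plus BAY-876. The groups form 3 separate levels, control and FGF1 on top and BAY-876 at the bottom. Its log2 difference was -0.76 ± 0.08 with FGF8b (limma adjusted p 6.67e-07) and -1.27 ± 0.08 for BAY-876 against FGF8b alone (limma adjusted p 3.74e-09).

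Fzd8 had 2.65, 2.45 and 2.58 RPKM in control, 3.05, 2.63 and 2.64 RPKM with FGF1, 0.499, 0.494 and 0.645 RPKM with FGF8b, 0.516, 0.518 and 0.393 RPKM with FGF9, and 0.525, 0.585 and 0.715 RPKM with FGF8b plus BAY-876. The 9 libraries with FGF8b or FGF9 lay in 1 low band, with a log2 difference of -1.55 ± 0.10 for FGF8b (limma adjusted p 1.41e-09), and BAY-876 gave no call (0.08, 95% interval -0.13 to 0.29). Fzd4, known in vessels for its ligand norrin, had 7.41, 6.85 and 8.39 RPKM in control, 5.47, 5.29 and 5.38 RPKM with FGF1, 2.89, 3.30 and 2.92 RPKM with FGF8b, 3.01, 2.84 and 2.79 RPKM with FGF9, and 2.86, 2.82 and 2.84 RPKM with FGF8b plus BAY-876. FGF1 lay between control and FGF8b without overlap, with log2 differences of -0.45 ± 0.08 for FGF1 (limma adjusted p 4.14e-04) and -1.18 ± 0.08 for FGF8b (limma adjusted p 3.27e-09). The summed endothelial list given above, carried by Kdr and Tek, was also highest in control, and its part in the Fzd4 values was not tested.

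Fzd2 had 7.86, 6.90 and 6.47 RPKM in control, 8.25, 8.43 and 8.86 RPKM with FGF1, 2.97, 2.81 and 2.93 RPKM with FGF8b, 2.20, 3.95 and 2.85 RPKM with FGF9, and 1.58, 2.08 and 1.72 RPKM with FGF8b plus BAY-876. Control and FGF1 lay above all others, and the log2 difference was -1.15 ± 0.14 with FGF8b (limma adjusted p 2.75e-06) and -0.58 ± 0.14 for BAY-876 (limma adjusted p 0.00237). Fzd7 fell by 0.53 with FGF8b and by 0.43 with FGF9 on the log2 scale, and was higher by 0.38 with BAY-876 than with FGF8b alone. Fzd5 fell by 0.49 with FGF8b.

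Fzd3 and Fzd6 were the receptors that rose. Fzd3 had a mean of 1.58 RPKM in control, 2.81 RPKM with FGF8b and 2.45 RPKM with FGF9, and the log2 differences were 0.67 ± 0.15 (limma adjusted p 0.00126) and 0.50 ± 0.15 (limma adjusted p 0.00943). Against FGF1 its rise with FGF8b was lost without FGF1 library 3 (adjusted p 0.0852 in limma) or FGF8b library 1 (0.0708). Fzd6 rose by 0.35 with FGF8b, a call lost without control library 1 (adjusted p 0.0629 in limma) or FGF8b library 1 (0.0611). Its rise of 0.28 with FGF9 was lost without control library 1 or 3, or FGF9 library 1 or 3 (adjusted p 0.0807 to 0.153 in limma), under trimmed-mean scaling (0.0982), with no filter on low values (0.0649) and in a fit on those 2 groups alone (0.0916). Fzd9 and Fzd10 were under the filter, with at most 18 reads per group for Fzd9 and at most 0.0118 RPKM in any library for Fzd10.

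Of the coreceptors, Lrp6 fell with all 3 growth factors, and Lrp5 was not called with any of them, also under trimmed-mean scaling. Lrp6 had 44.7, 43.6 and 48.1 RPKM in control, 37.3, 36.7 and 35.8 RPKM with FGF1, 15.9, 15.8 and 16.2 RPKM with FGF8b, 16.9, 14.9 and 15.6 RPKM with FGF9, and 12.6, 10.8 and 11.9 RPKM with FGF8b plus BAY-876. Levels stepped down from control through FGF1 to FGF8b and then to BAY-876 with no overlap. The log2 difference was -0.31 ± 0.06 with FGF1 (limma adjusted p 0.00149), -1.48 ± 0.06 with FGF8b (limma adjusted p 1.52e-11), -1.49 ± 0.06 with FGF9 (limma adjusted p 1.19e-11) and -0.43 ± 0.06 for BAY-876 (limma adjusted p 3.43e-05).

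Lrp5 had 11.5, 9.61 and 9.25 RPKM in control, 11.0, 11.6 and 10.9 RPKM with FGF1, 11.2, 9.79 and 10.5 RPKM with FGF8b, 9.56, 13.7 and 12.2 RPKM with FGF9, and 7.99, 8.48 and 9.36 RPKM with FGF8b plus BAY-876. Control overlapped every FGF group, and the log2 difference was 0.06 with FGF8b (95% interval -0.18 to 0.29) and 0.21 with FGF9 (-0.03 to 0.44). Without control library 1 or FGF9 library 1 the FGF9 difference passed (adjusted p 0.0377 and 0.006 in limma). The fall with BAY-876, -0.27 ± 0.11 with a limma adjusted p of 0.0467, was lost without FGF8b library 1 (0.146) or 3 (0.0913) or BAY-876 library 1 (0.143) or 2 (0.0986), under trimmed-mean scaling (0.149) and with no filter on low values (0.0817). Kremen1, a receptor that takes LRP6 from the surface together with DKK, had means of 6.77 RPKM in control, 6.15 RPKM with FGF1, 3.86 RPKM with FGF8b, 3.82 RPKM with FGF9 and 2.83 RPKM with FGF8b plus BAY-876, and fell by 0.74 with FGF8b on the log2 scale (limma adjusted p 1.59e-05).

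Among the R-spondins, Rspo3 rose with FGF1 and fell with FGF8b, Rspo2 fell with FGF8b, and Rspo1 was highest with BAY-876. Rspo3 had 2.81, 2.68 and 3.28 RPKM in control, 16.2, 14.9 and 15.8 RPKM with FGF1, 0.442, 0.480 and 0.473 RPKM with FGF8b, 0.334, 0.291 and 0.314 RPKM with FGF9, and 0.350, 0.296 and 0.284 RPKM with FGF8b plus BAY-876. FGF1 stood far above control and every other group far below it. Relative to control the log2 difference was 2.24 ± 0.08 with FGF1 (limma adjusted p 4.17e-11), -1.82 ± 0.08 with FGF8b (limma adjusted p 3.17e-11) and -2.07 ± 0.08 with FGF9 (limma adjusted p 6.02e-12). FGF8b against FGF1 gave -4.06 ± 0.08 (limma adjusted p 6.60e-15). Rspo3 met the level filter in control and FGF1 libraries alone, so the groups where it was high decided that it was tested. Its falls are therefore given as a description. BAY-876 gave a further -0.25 ± 0.08 (limma adjusted p 0.0181), which was lost without BAY-876 library 3 (0.0594) and with a pseudocount of 1 (0.0533).

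Rspo2 had 10.5, 10.3 and 11.6 RPKM in control, 10.2, 9.22 and 10.04 RPKM with FGF1, 0.851, 0.734 and 0.686 RPKM with FGF8b, 0.931, 0.638 and 0.686 RPKM with FGF9, and 0.175, 0.284 and 0.212 RPKM with FGF8b plus BAY-876. Control and FGF1 were of similar height, and the FGF8b and FGF9 libraries were all far lower. The log2 difference was -3.17 ± 0.10 with FGF8b (limma adjusted p 3.88e-13), or 14.3-fold in reads (95% interval 12.5 to 16.4), and -0.80 ± 0.10 for BAY-876 (limma adjusted p 6.94e-06). With FGF1 it was -0.13, which did not pass (95% interval -0.35 to 0.09).

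Rspo1 had at most 0.104 RPKM in any control or FGF1 library, 0.181, 0.0789 and 0.0399 RPKM with FGF8b, 0.127, 0.312 and 0.136 RPKM with FGF9, and 1.13, 1.26 and 1.44 RPKM with FGF8b plus BAY-876. The reads were 17 with FGF8b and 249 with BAY-876 added, a ratio of 12.8 (95% interval 7.81 to 22.3, counting error only). Rspo1 met the level filter through the 3 BAY-876 libraries alone, so the group where it was high decided that it was tested. Its log2 difference of 1.57 is therefore given as a description, with no test. Its rise with FGF9, 0.33 ± 0.12, was lost without control library 3 (adjusted p 0.0697 in limma) or FGF9 library 2 (0.13). Znrf3, the ligase that R-spondins bind, had means of 0.856 RPKM in control, 0.894 RPKM with FGF1, 1.38 RPKM with FGF8b, 1.47 RPKM with FGF9 and 2.21 RPKM with FGF8b plus BAY-876. It rose by 0.47 ± 0.08 with FGF8b (limma adjusted p 1.62e-04) and by a further 0.53 ± 0.08 with BAY-876 (limma adjusted p 6.83e-05).

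The R-spondin receptors, named after their values were seen, are not among the 46 genes. Lgr4 had group means of 6.73 RPKM in control, 12.5 RPKM with FGF1, 4.0 RPKM with FGF8b and 6.0 RPKM with FGF8b plus BAY-876. The log2 difference was 0.85 ± 0.10 with FGF1 (limma adjusted p 5.77e-06) and -0.68 ± 0.10 with FGF8b (limma adjusted p 1.82e-05). Lgr5 was lower, with 0.514 RPKM in control, 0.892 RPKM with FGF1 and 0.0253 RPKM with FGF8b, and also rose with FGF1 and fell with FGF8b, by 0.46 and -0.95 on the log2 scale. Lgr5 was tested through control and FGF1 libraries alone, where it was high, so these differences are given as descriptions. Lgr6 did not share this: it had 0.451 RPKM in control, 0.309 RPKM with FGF1 and 0.466 RPKM with FGF8b, with log2 differences of -0.24 (limma adjusted p 0.244) and 0.01 (limma adjusted p 0.969) that did not pass. With BAY-876 added to FGF8b it had 1.02 RPKM, a rise of 0.67 ± 0.15 (limma adjusted p 0.00147).

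All 5 tested secreted antagonists fell with FGF8b and with FGF9, and all 5 were lower again with BAY-876 than with FGF8b alone. The shares of all tested genes called lower were 26.6%, 27% and 34.8% in these comparisons. Sfrp1 had 89.0, 77.9 and 89.3 RPKM in control, 110.2, 110.2 and 106 RPKM with FGF1, 5.58, 6.36 and 6.64 RPKM with FGF8b, 7.14, 5.68 and 7.15 RPKM with FGF9, and 4.23, 4.15 and 3.53 RPKM with FGF8b plus BAY-876. FGF1 lay above control in every library, and the remaining groups lay far below. The log2 difference was 0.35 ± 0.09 with FGF1 (limma adjusted p 0.00761), -3.68 ± 0.09 with FGF8b (limma adjusted p 2.97e-14), -3.59 ± 0.09 with FGF9 (limma adjusted p 3.27e-14) and -0.58 ± 0.09 for BAY-876 (limma adjusted p 6.59e-05).

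Sfrp2 had 95.5, 77.1 and 85.9 RPKM in control, 99.1, 101 and 103 RPKM with FGF1, 7.19, 6.75 and 8.99 RPKM with FGF8b, 6.26, 8.61 and 7.09 RPKM with FGF9, and 4.08, 3.99 and 4.22 RPKM with FGF8b plus BAY-876. As for Sfrp1, FGF1 lay above control in every library and the remaining groups far below, though the FGF1 difference of 0.23 did not pass (limma adjusted p 0.118). It passed in the voom fit on reads (adjusted p 0.0285) and in a limma fit on those 2 groups alone (0.0363). With FGF8b the log2 difference was -3.42 ± 0.11 (limma adjusted p 4.07e-13), and BAY-876 gave a further -0.82 ± 0.11 (limma adjusted p 1.25e-05).

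Sfrp4 differed from the pair in that FGF1 lowered it too. It had 21.7, 20.4 and 24.2 RPKM in control, 6.04, 7.21 and 7.48 RPKM with FGF1, 0.344, 0.10 and 0.337 RPKM with FGF8b, 0.149, 0.143 and 0.256 RPKM with FGF9, and 0.0483, 0.0201 and 0.0838 RPKM with FGF8b plus BAY-876. The reads fell from 3882 in control to 1022, 40, 36 and 10 in the same order of groups. Sfrp4 was tested through control and FGF1 libraries alone, where it was high, so its falls with FGF8b and FGF9 are descriptions. In reads it was 3.23-fold lower with FGF1 (95% interval 3.02 to 3.46) and 88.7-fold lower with FGF8b (65.0 to 124). The log2 differences were -1.61 ± 0.13 (limma adjusted p 1.39e-07) and -4.91 ± 0.13 (limma adjusted p 5.15e-14), and that for BAY-876 was -0.45 ± 0.13 (limma adjusted p 0.00836).

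Dkk3, a DKK family member whose action on the coreceptors is less settled, had 12.7, 9.96 and 12.2 RPKM in control, 7.76, 8.23 and 7.95 RPKM with FGF1, 3.61, 3.36 and 3.85 RPKM with FGF8b, 2.95, 3.25 and 3.26 RPKM with FGF9, and 2.05, 1.79 and 2.26 RPKM with FGF8b plus BAY-876. Each step from control to FGF1, FGF8b and BAY-876 was without overlap, at log2 differences of -0.51 ± 0.10 for FGF1 (limma adjusted p 6.75e-04), -1.56 ± 0.10 for FGF8b against control (limma adjusted p 1.10e-09) and -0.70 ± 0.10 for BAY-876 against FGF8b (limma adjusted p 1.66e-05). Dkk2 had 22.6, 23.4 and 26.0 RPKM in control, 26.6, 26.9 and 25.9 RPKM with FGF1, 13.8, 16.8 and 19.1 RPKM with FGF8b, 15.7, 17.2 and 16.9 RPKM with FGF9, and 6.07, 6.81 and 5.86 RPKM with FGF8b plus BAY-876. Here the step at BAY-876 was the larger one, at -1.33 ± 0.10 (limma adjusted p 1.33e-08) against -0.53 ± 0.10 for FGF8b over control (limma adjusted p 1.47e-04). Whether these 2 steps differ was not tested.

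Of the 4 antagonists under the filter, Dkk1 was listed at 0 in every library. Sfrp5 had at most 0.0142 RPKM and Wif1 at most 0.102 RPKM in any library. Frzb was decided by 1 control library, with 1.21, 0.0763 and 0.385 RPKM in control and 0.0892 to 0.448 RPKM in the other groups.

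**Figure D4:**
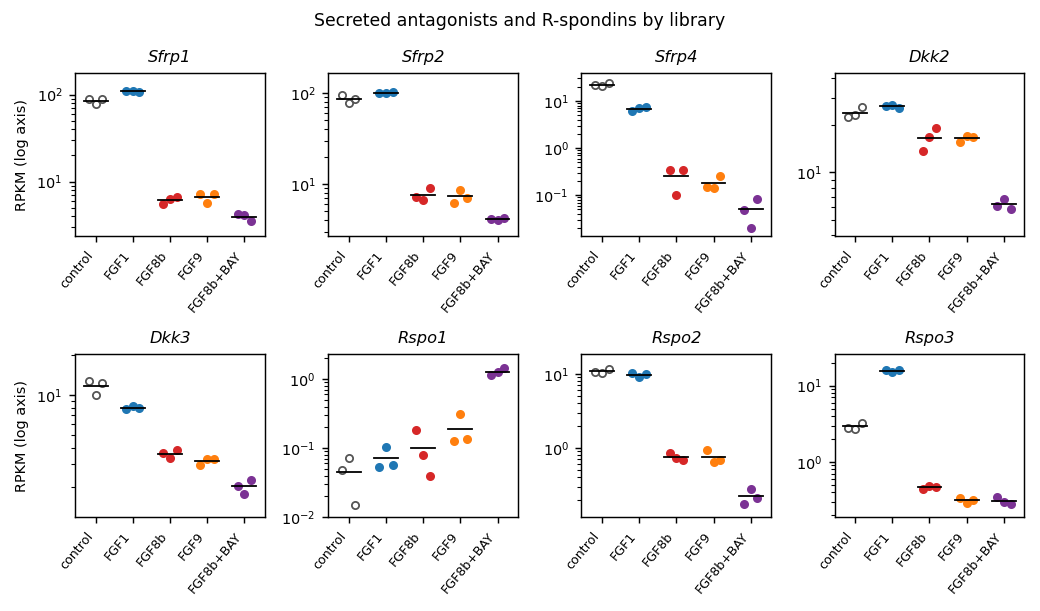
RPKM (log axis) in each library of 5 secreted antagonists and 3 R-spondins, 3 points per group with a line at the mean. Rspo3 is highest with FGF1 and Rspo1 with FGF8b plus BAY-876. Sfrp1, Sfrp2, Sfrp4, Rspo2 and Rspo3 drop between FGF1 and FGF8b by over 1 unit of the log10 axis.

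Beta-catenin mRNA moved little. Ctnnb1 had 219, 221 and 215 RPKM in control, 237, 233 and 237 RPKM with FGF1, 191, 189 and 191 RPKM with FGF8b, 197, 184 and 194 RPKM with FGF9, and 232, 208 and 209 RPKM with FGF8b plus BAY-876. FGF8b and FGF9 lay below control without overlap, and BAY-876 above FGF8b. The log2 differences were -0.20 ± 0.05 with FGF8b (limma adjusted p 0.00218), -0.19 ± 0.05 with FGF9 (limma adjusted p 0.00317) and 0.18 ± 0.05 for BAY-876 (limma adjusted p 0.00453). Ctnnb1 has 16 transcripts averaging at least 0.5 RPKM. Over these, differences between group means ran from -0.21 to -0.13 with FGF8b, -0.20 to 0.12 with FGF9 and 0.14 to 0.20 for BAY-876. RNA levels do not measure the protein, which is what WNT signalling regulates.

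Axin1, the scaffold of the destruction complex, rose by 0.22 ± 0.08 with FGF8b (limma adjusted p 0.0203) and by 0.28 ± 0.08 with FGF9 (limma adjusted p 0.00561), from a mean of 19.9 RPKM in control to 23.3 and 24.2 RPKM. The FGF8b call was lost without control library 2 (adjusted p 0.0962 in limma), FGF8b library 1 (0.0881) or FGF8b library 2 (0.071), and under trimmed-mean scaling (0.0971). Axin2, a scaffold that is itself a common readout of canonical WNT signalling, was under the filter with 24 reads in control, 16 with FGF1, 13 with FGF8b, 11 with FGF9 and 24 with FGF8b plus BAY-876. Its ratio of FGF8b to control was 0.592 (95% interval 0.277 to 1.21), so no difference was detectable at this depth, while with FGF9 the ratio was 0.402 (0.178 to 0.852) in counting error alone. Nkd2, which binds Dishevelled and dampens WNT signals, had 0.644, 0.370 and 0.433 RPKM in control, 0.742, 0.602 and 0.509 RPKM with FGF1, 1.10, 1.21 and 0.781 RPKM with FGF8b, 1.11, 1.04 and 0.985 RPKM with FGF9, and 2.43, 2.14 and 2.54 RPKM with FGF8b plus BAY-876. FGF8b lay above control and BAY-876 above FGF8b in every library, at log2 differences of 0.64 ± 0.13 (limma adjusted p 3.94e-04) and 0.91 ± 0.13 (limma adjusted p 1.80e-05). Its relative Nkd1 had a mean of 0.858 RPKM in control and 0.511 RPKM with FGF1, a fall lost without control library 1 (adjusted p 0.0548 in limma) or 2 (0.0638) or FGF1 library 2 (0.0661) or 3 (0.0804). Nkd1 fell by 0.49 with BAY-876 (limma adjusted p 0.00505).

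The TCF/LEF factors, which bind DNA and work with beta-catenin, changed in opposite directions. Tcf7 had 1.41, 1.11 and 1.61 RPKM in control, 2.27, 2.65 and 2.70 RPKM with FGF1, 3.98, 3.87 and 3.88 RPKM with FGF8b, 3.31, 4.03 and 4.13 RPKM with FGF9, and 1.71, 1.66 and 1.88 RPKM with FGF8b plus BAY-876. Libraries rose from control through FGF1 to FGF8b without overlap, and BAY-876 brought the level to just above control. Log2 differences were 0.70 ± 0.11 with FGF1 (limma adjusted p 1.02e-04), 1.24 ± 0.11 with FGF8b (limma adjusted p 6.32e-08), 1.21 ± 0.11 with FGF9 (limma adjusted p 8.01e-08) and -0.97 ± 0.11 for BAY-876 (limma adjusted p 1.83e-06).

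Tcf7l2, a TCF factor with a known role in fat and metabolism, had 13.7, 12.5 and 15.1 RPKM in control, 10, 9.81 and 10.5 RPKM with FGF1, 3.56, 3.78 and 3.96 RPKM with FGF8b, 3.14, 3.94 and 3.01 RPKM with FGF9, and 1.73, 1.95 and 2.20 RPKM with FGF8b plus BAY-876. It fell with FGF1 and FGF8b, where Tcf7 rose, and both fell when BAY-876 was added to FGF8b. The log2 differences of Tcf7l2 were -0.43 ± 0.10 with FGF1 (limma adjusted p 0.00378), -1.74 ± 0.10 with FGF8b (limma adjusted p 4.88e-10) and -0.80 ± 0.10 for BAY-876 (limma adjusted p 6.94e-06). Tcf7l1, which often acts as a repressor, fell by 0.97 with FGF8b and by 0.66 with FGF9 on the log2 scale. Lef1 was under the filter, with 8 reads in control, 7 with FGF1, 29 with FGF8b, 62 with FGF9 and 60 with FGF8b plus BAY-876. Its ratio to control was 3.96 with FGF8b (95% interval 1.77 to 10.04) and 6.79 with FGF9 (3.24 to 16.4), in counting error alone, and its 3 FGF8b libraries ranged from 0.0312 to 0.235 RPKM. The transcripts that stand for Axin1 (465 bases), Tcf7l1 (463), Ctnnb1 (692) and Tcf7l2 (830) are short ones, so their RPKM is that of a fragment of the gene.

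**Figure D5:**
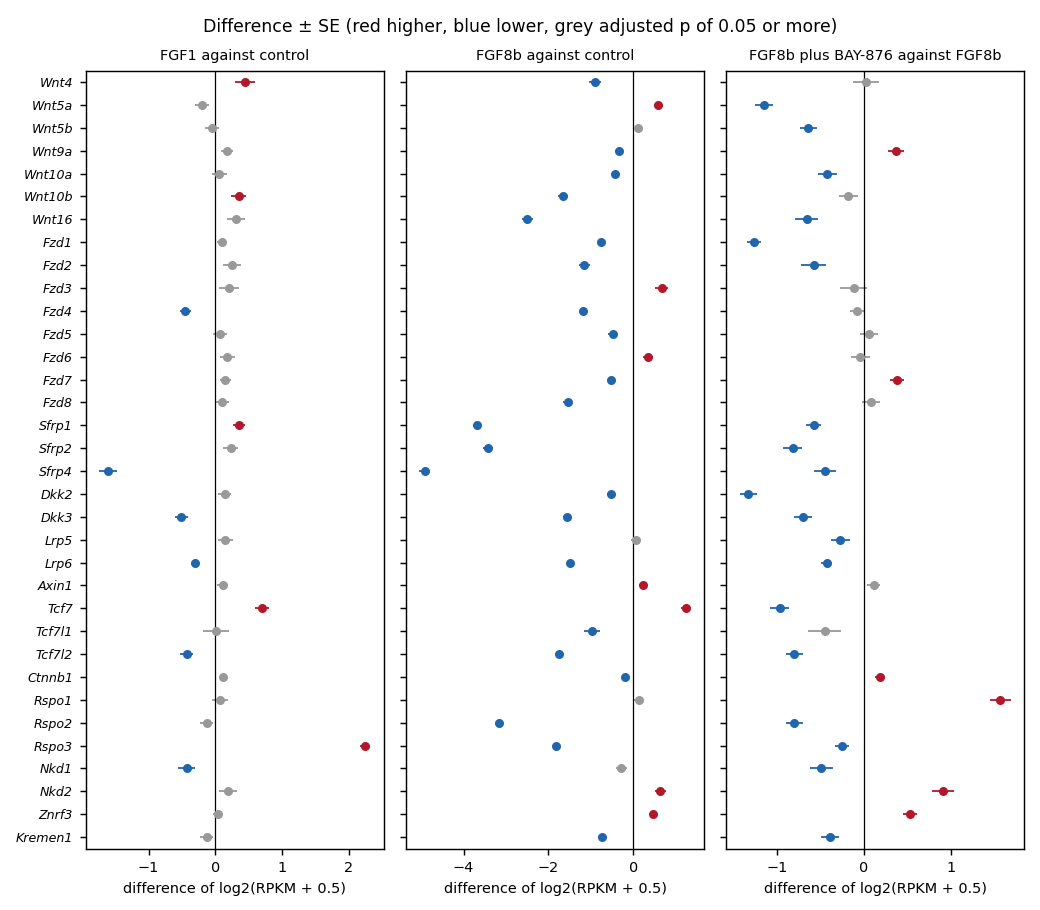
Difference in log2(RPKM + 0.5) with its SE for the 34 tested WNT genes, for FGF1 against control, FGF8b against control and FGF8b plus BAY-876 against FGF8b, in red where called higher, blue where called lower and grey where not called. Rspo3 is at 2.24 with FGF1 and at -1.82 with FGF8b, and the axes differ between panels.

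Further genes of the pathway were counted from a list of 70 that holds none of the 46, of which 48 were tested. With FGF1 12 rose and 6 fell, with FGF8b 11 rose and 18 fell, with FGF9 11 rose and 18 fell, and with BAY-876 on FGF8b 14 rose and 15 fell. As shares of the 48, 25% were higher and 12.5% lower with FGF1, 22.9% and 37.5% with both FGF8b and FGF9, and 29.2% and 31.2% with BAY-876. The shares over all tested genes were 19.3% and 15.1%, 37.8% and 26.6%, 38.7% and 27%, and 22.5% and 34.8%, in the same order of comparisons. The median log2 difference was 0.09 with FGF1, -0.03 with FGF8b, -0.05 with FGF9 and -0.11 with BAY-876, beside 0.02, 0.08, 0.09 and -0.08 for all tested genes. The 6 largest changes with FGF8b were all falls. Rhou, a small GTPase induced by WNT1 in mammary cells, went from a mean of 32.3 RPKM to 4.33 RPKM (log2 difference -2.76 ± 0.06, limma adjusted p 6.53e-15), and was at 25.3 RPKM with FGF1. Daam2, a formin that binds Dishevelled, went from 2.47 RPKM to 0.0814 RPKM (-2.34 ± 0.15, limma adjusted p 1.28e-09). Ror1, a receptor for Wnt5a, went from 2.92 RPKM to 0.402 RPKM (-1.93 ± 0.10, limma adjusted p 2.15e-10). The others were the corepressor Tle2 (-1.67), the planar polarity gene Prickle1 (-1.47) and the Dishevelled-binding Dact1 (-1.39). Daam2, Ror1 and Dact1 averaged below 0.5 RPKM with FGF8b, FGF9 and FGF8b plus BAY-876. They were tested mainly through groups where they were high, so their falls are given as descriptions.

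A second list held 30 genes known as targets of WNT and beta-catenin in other cells, some of them among the 46. Of 21 tested, FGF1 gave 10 higher and 7 lower, FGF8b 7 higher and 8 lower, FGF9 9 higher and 7 lower, and BAY-876 on FGF8b 9 higher and 7 lower. Of the 21, 33.3% were higher and 38.1% lower with FGF8b, beside 37.8% and 26.6% of all tested genes. With FGF1 47.6% were higher and 33.3% lower, beside 19.3% and 15.1%. With FGF9 42.9% were higher and 33.3% lower, beside 38.7% and 27%, and with BAY-876 42.9% and 33.3%, beside 22.5% and 34.8%. The median log2 difference was 0.21 with FGF1, -0.08 with FGF8b, -0.04 with FGF9 and -0.05 with BAY-876. Examples, chosen after their values were seen, went in both directions. Ccnd1, the cell cycle gene for cyclin D1, had a mean of 7.74 RPKM in control, 2.58 RPKM with FGF1, 37.3 RPKM with FGF8b and 86.0 RPKM with FGF8b plus BAY-876 (log2 difference with FGF8b 2.19 ± 0.08, limma adjusted p 2.08e-12). Wisp2, a secreted protein of the CCN family, had 34.4 RPKM in control, 53.2 RPKM with FGF1, 1.82 RPKM with FGF8b and 0.417 RPKM with FGF8b plus BAY-876 (log2 difference with FGF8b -3.91 ± 0.13, limma adjusted p 4.45e-13). Many such targets also respond to other signals, and the part of WNT signalling in these changes was not tested.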

How the data were processed

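The authors deposited 1 table of RPKM values with 168326 transcript lines and 15 library columns, all matched to samples by name (0 unmatched). The unit is not named in it and was checked from its values: when low values were multiplied by transcript length, 94.4% to 95.2% came out as whole multiples of a library's own step (tolerance 0.05), as the authors' RPKM would. Values carry a decimal comma. The submitters' processing notes name CASAVA and bcl2fastq, without versions. Aligner, genome build and annotation: not given in the sources used here. The labels' protocols name the TruSeq RNA Sample Prep kit v2, and strand use in counting is not stated, so reads of a gene and of an overlapping antisense gene cannot be told apart. In GENCODE vM21, exons of 10 of the 46 genes overlap an antisense gene, among them Wnt5a, Sfrp2, Ctnnb1 and Rspo3.

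Only the 145154 lines with a symbol were used, and this restriction was made once the table had been read. Models were fitted with limma 3.58.1 in R 4.3.3 with a mean-variance trend on log2(RPKM + 0.5), over all 15 libraries and 5 groups. The filter was 0.5 RPKM in 3 libraries, with Benjamini-Hochberg adjustment over 13869 genes in each of 6 comparisons and a threshold of 0.05. The fit was tested on simulated data. Whole reads were recovered for 13868 of these genes (tolerance 0.02 read) and gave the read counts and exact intervals, which cover counting error only, at 27 to 42.6 M reads per library.

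Genes given in every library averaged 1 RPKM or more in a group and had a called log2 difference of at least 1 in FGF1, FGF8b or FGF9 against control, or with BAY-876 against FGF8b. This named 18 genes, and Ctnnb1, Axin2, Lef1, Lrp5 and Lrp6 were described whatever their values. Nkd2 was added after its values were seen. In the list of other pathway genes, the 6 largest changes with FGF8b were named. The members and lists were chosen with earlier results of these data known. Deviations of same-number libraries correlated in some pairs and not in others (11 of 30 pairs above a correlation of 0.1, range -0.443 to 0.534). No block was used in the main fit, and whether same-number libraries share a batch is not stated. The alternatives covered scaling, pseudocounts, filters, transcript choice, the groups fitted, a replicate block, reads with voom and each library left out. The trimmed-mean scaling planned with a package was written by hand, since the table holds no counts.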

Additional observations from a re-analysis of the deposited data

How the results depend on the processing

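The 12 counts of WNT genes higher or lower stayed within 1.5 times their reported value under most alternatives. The exceptions were FGF1 against control with a pseudocount of 0.1 (3 higher, against 5), FGF9 against control with a filter at 2 RPKM (5 higher, against 8, with 26 genes tested) and FGF8b plus BAY-876 against FGF8b with that filter (3 higher, against 6, with 26 genes tested). Fewer genes were tested under the stricter filter, and the cause of the first was not tested. Leaving out 1 library at a time gave 4 to 5 higher and 5 to 6 lower for FGF1, 5 to 7 and 23 to 24 for FGF8b, 6 to 9 and 20 to 22 for FGF9, 4 to 5 and 23 for FGF8b against FGF1, 0 and 0 for FGF9 against FGF8b, and 6 and 18 to 19 for BAY-876. Of the called differences, 0 reversed under any alternative that was run. Among those not called, the sign of Lrp5 in FGF8b against control changed with trimmed-mean scaling (-0.0157), and leaving out 1 library gave -0.00204 to 0.146, negative without control library 3. For Rspo1 in FGF8b against FGF1, leaving out 1 library gave -0.0306 to 0.137, negative without FGF8b library 1. Calls were also gained: with FGF1, Wnt16 passed with a pseudocount of 1, in the fit on 2 groups, in voom and without control library 1, Fzd2 and Sfrp2 in the fit on 2 groups, Sfrp2 in voom, and Ctnnb1 for the RefSeq transcript. In their labels, the same-number libraries share only a number. With them as a replicate block, the fall of Lrp5 with BAY-876 (-0.273, adjusted p 0.0636 by limma) was lost and the counts of calls stayed within 1.5 times. Depth limits Axin2, Lef1, Wnt4 and the other genes of few reads, whose ratios have wide intervals.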
